A study of Danio rerio with 14 samples.

Results

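Genes of the canonical Wnt pathway were measured in zebrafish embryos at mid-gastrulation, with and without ethanol, for 10 named genes: the ligand wnt8a, the secreted antagonists dkk1b and frzb, the destruction complex genes axin1, axin2, gsk3b and apc, and the nuclear factors tcf7l1a, lef1 and sp5l. Members were the probe sets that the array annotation gives to 1 gene symbol only, current or older, among these names. The rule found 9 of 15502 probe sets, for 8 of the 10 genes, and all 9 passed the filter on low signal. The probe set named for gsk3b carries the current symbol gsk3ba, and axin1 has 2 probe sets. The single probe set for wnt8a is annotated to both wnt8-2 and wnt8a, so it lies outside the rule and its values are given as those of the wnt8 locus. No probe set was so annotated for apc, which was not analysed here.

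Canonical Wnt ligands bind Frizzled receptors and Lrp co-receptors, which stops a complex built on Axin and Apc, with the kinase Gsk3, from marking beta-catenin for degradation. Stabilised beta-catenin enters the nucleus and, with Tcf and Lef proteins, turns repressed targets on. In the zebrafish gastrula Wnt8 from the ventrolateral margin promotes ventrolateral mesoderm and posterior neural fates, while secreted antagonists from the dorsal side and the repressor Tcf7l1a protect the anterior brain.

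Each sample was a pool of about 20 whole embryos of the TL wild-type strain at 8 hours post fertilization (hpf), and 1 Affymetrix Zebrafish Genome Array was hybridised per pool. The 7 alcohol pools were kept in medium with 100 mM (0.6%) ethanol from 2 hpf, for 6 hours, and the 7 control pools in medium with no ethanol. Both groups were taken at the same age in hours, and the paper reports slowed epiboly with ethanol. The part of developmental stage in the differences between groups was not tested. Pairs of an alcohol and a control pool carry the labels 1 to 6 and 8, and each pair came from an experiment of its own with a separate batch of embryos. Values are MAS5 signals, brightness summaries that the authors scaled to a common target on every array. A pool mixes all tissues of the embryo, so fewer cells of a type and less RNA per cell cannot be told apart, and precision is bounded by having 7 arrays in each group.

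Of the 9 probe sets, 1 fell with ethanol, the antagonist frzb, and 0 rose. Changes are log2 ratios of ethanol over control from limma with the pair as a block, and p-values were adjusted by the Benjamini-Hochberg method over the 9240 probe sets tested. A probe set counted as called where its adjusted p did not exceed 0.10. By that rule 4.36% of all tested probe sets were called, 2.36% higher and 2.00% lower. An unadjusted p under 0.05 was reached by 2 of the 9, frzb and gsk3ba, against 15.0% of all tested probe sets. The median change of the 9 was -0.10, with 6 values below 0 and 3 above, and the median of all tested probe sets was -0.0014. The control and ethanol signals overlapped for all 9, and only 0.357% of tested probe sets had groups that did not overlap.

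**Figure D1:**
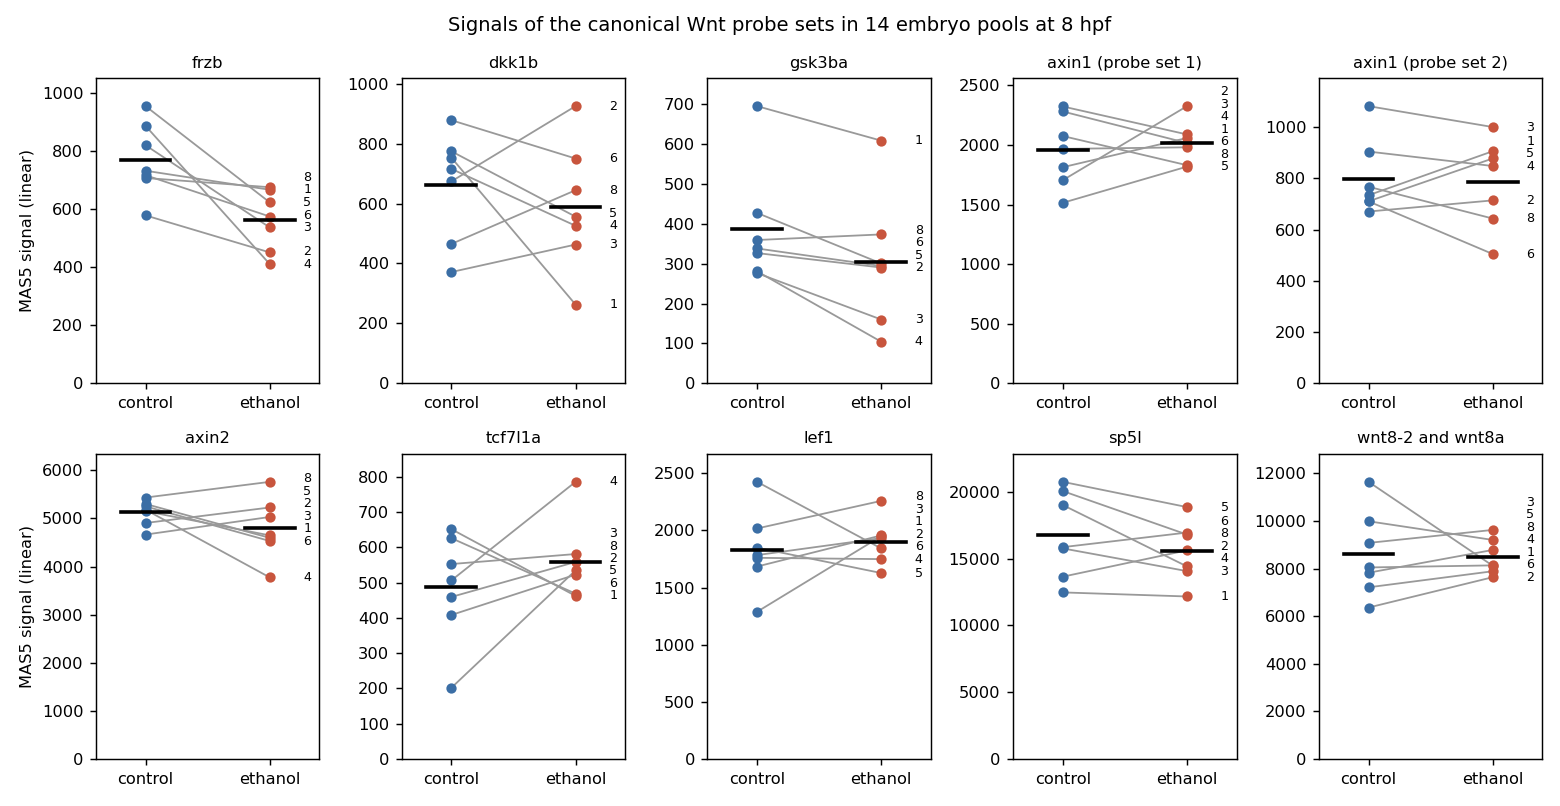
MAS5 signal (linear, y axis from 0) of the 9 member probe sets and the wnt8-2 and wnt8a probe set in 7 control (blue) and 7 ethanol (red) pools, where grey lines join pools of a pair and black bars are group means. The numbers beside the ethanol points are pair labels, listed in the order of the ethanol signals and spread apart where points lie close. All 7 frzb lines slope down, while those of the other probe sets slope both ways.

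The wnt8 locus gave a high signal in every pool and did not differ between groups. The control signals ran from 6361 to 11644 with a median of 8046, and the ethanol signals from 7637 to 9623 with a median of 8134. The ethanol pools lay inside the control range, and the highest and lowest pools of the series were both controls, of pairs 1 and 2. The log2 change was 0.0029 (SE 0.09, 95% interval -0.18 to 0.18, limma adjusted p = 0.99), with 5 of 7 pairs higher. In pair 1 the signal went from 11644 to 8118, and in pair 2 from 6361 to 7637. The probe set does not separate wnt8-2 from wnt8a, so each transcript's share of this signal was not measured.

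frzb, which encodes a secreted Frizzled-related protein that binds Wnt ligands outside the cell, was lower in the ethanol pool of all 7 pairs. Its control signals ran from 579 to 956 with a median of 733, and its ethanol signals from 410 to 676 with a median of 575. The 2 groups overlapped between 579 and 676. By pair, the signal went from 733 to 667 in pair 1, 579 to 451 in pair 2, 820 to 537 in pair 3, 887 to 410 in pair 4, 956 to 623 in pair 5, 717 to 575 in pair 6 and 708 to 676 in pair 8. The drop was widest in pair 4 and narrowest in pairs 8 and 1. The group means were 771 ± 126 and 563 ± 103 (SD, n = 7), and the log2 change was -0.46 (SE 0.14, 95% interval -0.76 to -0.16), or 0.727 of the control level. Over the 7 pairs an exact sign-flip test (two-sided) gave p = 0.0156, the smallest it allows. frzb was the 1 member with a single direction across the 7 pairs, which 6.11% of tested probe sets did, and 2.97% of tested probe sets were lower in all 7.

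The call on frzb sat at the threshold. Its limma adjusted p was 0.09996, the 402nd of 403 called probe sets in order of p, and the next probe set outside had an adjusted p of 0.101. Over 17 alternative settings the change lay between -0.53 and -0.35, but 4 kept the call, with adjusted p between 0.0733 and 0.412. Because frzb was lower in every pair, leaving out a pair or adding an offset could not turn the sign. Changing the filter, block or trend left the change at -0.46. In those settings the sign is therefore no separate test of the fall. Without pair 1 the adjusted p was 0.0776, and without pair 4 the change was -0.35 (adjusted p = 0.287). Without pair 2, 3, 5, 6 or 8 the adjusted p was 0.136, 0.186, 0.211, 0.149 and 0.113, so the call needed each of those 5 pairs and pair 4.

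dkk1b, whose product blocks the Lrp co-receptors and is made in the dorsal organizer and prechordal plate, did not move in 1 direction. Control signals ran from 371 to 879 with a median of 716, and ethanol signals from 263 to 926 with a median of 556. The ethanol group held both the lowest and the highest pool. In pair 1 the signal went from 754 to 263, whereas in pair 2 it went from 674 to 926. The means were 662 ± 180 and 589.9 ± 212 (SD, n = 7), and the log2 change was -0.20 (SE 0.20, 95% interval -0.62 to 0.21, limma adjusted p = 0.687), with 4 of 7 pairs lower. Without pair 1 the value was 0.02, on the other side of 0.

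gsk3ba, one of the zebrafish genes for the kinase that phosphorylates beta-catenin, had the same fitted value as frzb to 2 decimals, with a wider error. Control signals ran from 276 to 696 with a median of 338, and ethanol signals from 104 to 609 with a median of 294. Pair 1 gave the highest pool of each group, and 2 ethanol pools, of pairs 3 and 4, lay under the signal of 200 used as the filter. The log2 change was -0.46 (SE 0.22, 95% interval -0.91 to -0.01, limma adjusted p = 0.316), and 6 of 7 pairs were lower (two-sided exact sign-flip p = 0.0312), where 11.1% of tested probe sets were lower in at least 6 pairs. Pair 4 went from 281 to 104, and without it the value was -0.30. The test did not call gsk3ba under any alternative setting in which it was measured.

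axin1 encodes the scaffold of the destruction complex, the gene mutated in the masterblind line, whose embryos lack telencephalon and eyes. On its first probe set control signals ran from 1515 to 2323 with a median of 1967, and ethanol signals from 1818 to 2326 with a median of 2017. On its second probe set they ran from 671 to 1082 with a median of 734, and from 505 to 1001 with a median of 848. Both probe sets overlapped almost fully between groups, and the lowest pool was a control on the first and an ethanol pool on the second. The log2 changes were 0.06 (SE 0.10, 95% interval -0.15 to 0.27, limma adjusted p = 0.847) and -0.04 (SE 0.13, 95% interval -0.30 to 0.23, limma adjusted p = 0.932). The signs of the 2 probe sets were opposite, and neither interval excluded 0.

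axin2, a second Axin that is itself switched on by Wnt signalling and feeds back on it, was measured at a steady level in controls. Control signals ran from 4665 to 5434 with a median of 5181. Ethanol signals ran from 3773 to 5761 with a median of 4647, a wider range that held all the controls. The ethanol pool of pair 4 was the lowest of the series, at 3773 against 5181 in its control. The log2 change was -0.11 (SE 0.08, 95% interval -0.28 to 0.07, limma adjusted p = 0.606), with 4 of 7 pairs lower, and without pair 4 it was -0.05.

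sp5l, a transcription factor gene that lies downstream of Wnt8 in the margin, had an interval that included 0. Control signals ran from 12478 to 20764 with a median of 15869.5, and ethanol signals from 12173 to 18871 with a median of 15630.2. Pair 1 gave the lowest pool and pair 5 the highest pool of both groups. The log2 change was -0.10 (SE 0.08, 95% interval -0.26 to 0.06, limma adjusted p = 0.578), with 5 of 7 pairs lower, and without pair 4 it was -0.05.

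tcf7l1a and lef1 encode nuclear partners of beta-catenin with opposite leanings, Tcf7l1a a repressor of targets in the anterior brain and Lef1 an activator. tcf7l1a control signals ran from 202 to 652 with a median of 506, and ethanol signals from 462 to 786 with a median of 535. The lowest control, of pair 2, read 202 against 408 in the next control, and its ethanol pool read 535. The log2 change was 0.26 (SE 0.19, 95% interval -0.14 to 0.67, limma adjusted p = 0.572), with 5 of 7 pairs higher, and without pair 2 it was 0.07.

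lef1 control signals ran from 1288 to 2426 with a median of 1785, and ethanol signals from 1627 to 2259.5 with a median of 1933. The ethanol pools lay inside the control range, and pair 1, with the lowest control, went from 1288 to 1950.4 while pair 6, with the highest, went from 2426 to 1843. The log2 change was 0.07 (SE 0.11, 95% interval -0.16 to 0.30, limma adjusted p = 0.817), with 4 of 7 pairs higher.

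**Figure D2:**
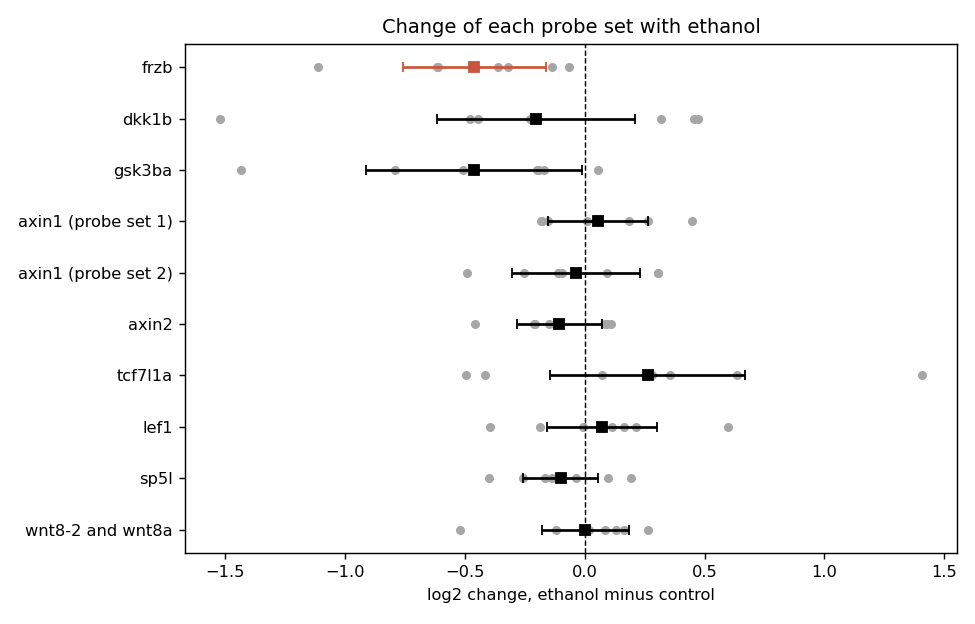
Log2 change (x axis, ethanol minus control) of each probe set, with squares and bars for the limma estimate and its 95% interval and grey points for the 7 pairs. frzb (red) was called; the intervals of the others, drawn in black, include 0 apart from gsk3ba, which ends at -0.01 and was not called after adjustment over all probe sets.

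The embryo batches differed in level for 2 of the 9 probe sets, against 22.3% of all tested probe sets (limma F test over pairs, adjusted p of at most 0.10). For sp5l the mean of a pair, taken on the log scale, ran from 12324 in pair 1 to 19795 in pair 5 (adjusted p = 0.0243). For gsk3ba it ran from 171 in pair 4 to 651 in pair 1 (adjusted p = 0.034). Pair 1 thus held the lowest sp5l and the highest gsk3ba. The batch effect on frzb did not pass the test (adjusted p = 0.609), nor did that on the wnt8 locus (adjusted p = 0.168).

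The change of the wnt8 locus within a pair was set against that of 5 members, to ask whether the ligand and its antagonists or targets moved together from batch to batch. Over all 7 pairs dkk1b gave the closest relation, with Pearson r = 0.938 (exact permutation p = 0.00397, adjusted over the 5 relations 0.0198) and Spearman rho = 0.929 (exact permutation p = 0.00675, adjusted 0.0337). Pair 1, where the wnt8 locus went from 11644 to 8118 and dkk1b from 754 to 263, stood at 1 end of it. At the other end stood pair 2, where the wnt8 locus went from 6361 to 7637 and dkk1b from 674 to 926. Between them, dkk1b went from 371 to 463 in pair 3, 716 to 526 in pair 4, 775 to 556 in pair 5, 879 to 751 in pair 6 and 465 to 645 in pair 8, while the wnt8 locus went from 9078 to 9623, 8046 to 8134, 9987 to 9202, 7211 to 7887 and 7825 to 8782 in the same order. Both signals were lower with ethanol in pairs 1 and 5 and higher in pairs 2, 3 and 8, and in pairs 4 and 6 the wnt8 locus was higher and dkk1b lower. Without pairs 1 and 5, the 2 farthest from the median of the wnt8 change, r was 0.725 (exact permutation p = 0.2, 5 pairs). Without pair 1 alone r was 0.803 (exact permutation p = 0.0486, adjusted 0.243). Without pair 5 alone r was 0.937 (exact permutation p = 0.0167, adjusted 0.0833). Spearman rho was 0.886 in each of these 2 cases (exact permutation p = 0.0333, adjusted 0.167). By r the relation thus passed without pair 5 but not without pair 1, and by rho it passed in neither case. The median signal of the whole array also went from 266.6 to 218.7 in pair 1 and from 243.1 to 295.7 in pair 2. With quantile normalization r was 0.957 (exact permutation p = 0.000198, adjusted 0.000992). The part of the array-wide signal in this relation was not tested. As a description, 19 of 9239 other tested probe sets (0.206%), dkk1b among them, had an r with the wnt8 locus at least as high as that of dkk1b, and the pools of a pair share a batch of embryos.

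The other 4 relations did not pass. Pearson r was 0.12 for sp5l (exact permutation p = 0.804), 0.285 for axin2 (p = 0.54), -0.114 for frzb (p = 0.791) and -0.54 for lef1 (p = 0.219), with adjusted p of 0.547 for lef1 and 0.804 for the others. Spearman rho was 0.25, 0.393, 0.286 and -0.179, with exact permutation p of 0.595, 0.396, 0.556 and 0.713. Without pairs 1 and 5 the values of r over 5 pairs were 0.775 for sp5l, 0.903 for axin2, 0.745 for frzb and 0.139 for lef1, with exact permutation p of 0.108, 0.0583, 0.167 and 0.792. Without pair 1 alone r was 0.574 for frzb and 0.355 for lef1, and without pair 5 alone it was -0.16 and -0.671. The sign of r for frzb and lef1 thus turned with pair 1, while rho for frzb was 0.286 over all pairs. Without pairs 1 and 5, dkk1b, at 0.725, was below axin2, sp5l and frzb. This order depended on the scaling. With quantile normalization and the same pairs left out, r was 0.835 for dkk1b, 0.945 for axin2, 0.739 for sp5l, 0.501 for frzb and 0.358 for lef1.

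**Figure D3:**
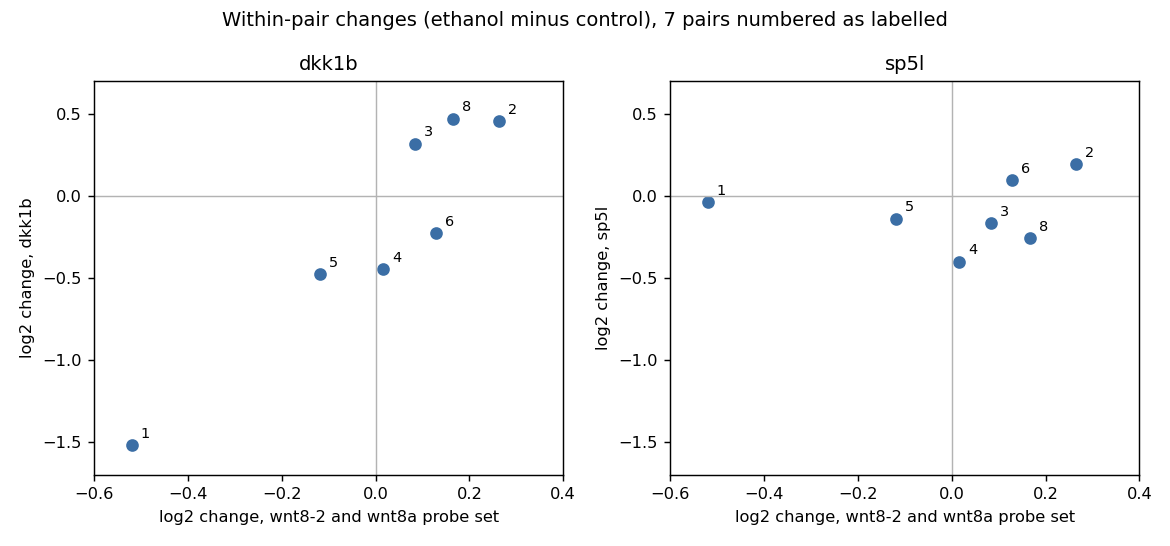
Within-pair log2 change (ethanol minus control) of dkk1b (left) and sp5l (right) on the y axis against that of the wnt8-2 and wnt8a probe set on the x axis, where each point is 1 of 7 pairs with its label. The dkk1b points rise along a line with pair 1 at the lower left (r = 0.938), while the sp5l points do not (r = 0.12).

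Around the members, 63 further genes of the pathway were tested, of 137 listed, and 3 fell and 0 rose. The values of 27 were above 0 and those of 36 below, with a median change of -0.04, against a median of 0.003 over the 6016 named genes tested, of which 154 rose and 123 fell. A gene with several probe sets was taken at the one with the highest mean signal.

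Among ligands and the proteins that acylate and export them, 2 of 13 listed genes were tested and 0 were called. wls, the carrier that takes Wnt proteins to the cell surface, had a value of -0.13 (SE 0.10), and porcnl, a porcupine-like gene of ligand acylation, 0.37 (SE 0.13, limma adjusted p = 0.17). A second wls probe set stood at 0.008 (SE 0.08, limma adjusted p = 0.976). Probe sets of 5 further ligands were under the signal filter, so their changes were not measurable on these arrays. Of 28 receptor genes 9 were tested and 0 called, among them the Frizzled receptors fzd7a at 0.05 (SE 0.08), fzd7b at -0.02 (SE 0.08) and fzd8a at 0.10 (SE 0.11), and the receptor kinase-like ryk at -0.07 (SE 0.10). The median of the 9 was -0.02, with 4 values above 0 and 5 below. Outside the rule for names and picked after their values were seen, fzd10 stood at -0.34 (SE 0.12, limma adjusted p = 0.165) and fzd8b at -0.36 (SE 0.15, limma adjusted p = 0.235), each lower in 6 of 7 pairs. fzd8b passed in 1 of 17 alternatives, without pair 1 (-0.52, adjusted p = 0.0319). A second fzd10 probe set stood at 0.23.

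Of 17 secreted antagonists, both members included, 7 were tested, and frzb was the one that was called. The median change of the 7 was -0.20, with 3 values above 0 and 4 below. sfrp1a, another Frizzled-related protein, stood at 0.05 (SE 0.09). szl, a sizzled gene whose product shares the Frizzled-like domain but acts on the protease that cleaves Chordin, stood at -0.27 (SE 0.14, limma adjusted p = 0.371). It passed in 1 of 17 alternatives, without pair 1, at -0.45 (adjusted p = 0.0154). The lowest value of the list, picked after it was seen, was that of sfrp5, at -1.20 (SE 0.58, limma adjusted p = 0.344). sfrp5 was lower in 5 of 7 pairs, with means of 228 in controls and 107 with ethanol, near or under the filter of 200.

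Of 22 destruction complex genes 11 were tested and 0 called, with 9 values below 0, 2 above and a median of -0.11. The casein kinase genes csnk1a1, csnk1db and csnk1da, whose products prime or regulate beta-catenin and Dishevelled, stood at -0.08 (SE 0.07), -0.05 (SE 0.08) and -0.26 (SE 0.09). csnk1da had an adjusted p of 0.174 and passed in 1 of 17 alternatives, without pair 1 (0.0857). Its second probe set stood at -0.10 (SE 0.16, limma adjusted p = 0.818) and passed in 0. Of 19 cytoplasmic transducers 11 were tested and 0 called. Both beta-catenin genes were near 0, ctnnb1 at -0.04 (SE 0.07) and ctnnb2 at 0.02 (SE 0.08).

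Of 23 nuclear effectors and corepressors 12 were tested and ctbp1 fell. ctbp1, a corepressor that acts with many transcription factors besides Tcf, went from 362 ± 93.2 to 219 ± 89.1 (SD, n = 7), a log2 change of -0.79 (SE 0.23, limma adjusted p = 0.0836), and was lower in all 7 pairs. It kept the call in 3 of 17 alternatives and in none of those that left out a pair, where its adjusted p was between 0.107 and 0.172. The corepressor tle2a stood at -0.01 (SE 0.07) and the beta-catenin inhibitor ctnnbip1 at 0.01 (SE 0.07).

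Of 27 genes reported as targets, axin2, lef1 and sp5l included, 21 were tested and 2 fell, with 13 values below 0, 8 above and a median of -0.08. neurog1, a proneural factor gene, went from 475 ± 302 to 301 ± 277 (SD, n = 7), a log2 change of -0.93 (SE 0.25, limma adjusted p = 0.0589), and was lower in 6 of 7 pairs. With an offset of 100 added to each signal its change was -0.64. irx1b, an Iroquois homeobox gene of the neural plate, went from 2910.4 ± 486 to 2372 ± 605 (SD, n = 7), a log2 change of -0.32 (SE 0.09, limma adjusted p = 0.0897), and was lower in all 7 pairs. Leaving out pair 1, 2, 4, 5 or 8 ended the call on neurog1 (adjusted p of 0.11, 0.116, 0.138, 0.154 and 0.129), and leaving out pair 3, 4, 5, 6 or 8 that on irx1b (adjusted p of 0.105, 0.155, 0.254, 0.167 and 0.212). Both calls also ended with median centring (0.103 for neurog1 and 0.253 for irx1b), with a random replicate block (0.211 for each), without the replicate block (0.626 and 0.62) and without trend (0.192 and 0.239), and that on irx1b with quantile normalization (0.11), so that 8 of 17 alternatives kept neurog1 and 7 of 17 irx1b. Marginal and ventral targets were not called, with cdx4 at -0.08 (SE 0.07), vox at 0.14 (SE 0.08) and ved at 0.23 (SE 0.08, limma adjusted p = 0.139). The cyclin gene ccnd1 was not called on either of its probe sets. These stood at 0.15 (SE 0.08, limma adjusted p = 0.406) and 0.17 (SE 0.07, limma adjusted p = 0.232), the second higher in all 7 pairs.

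**Figure D4:**
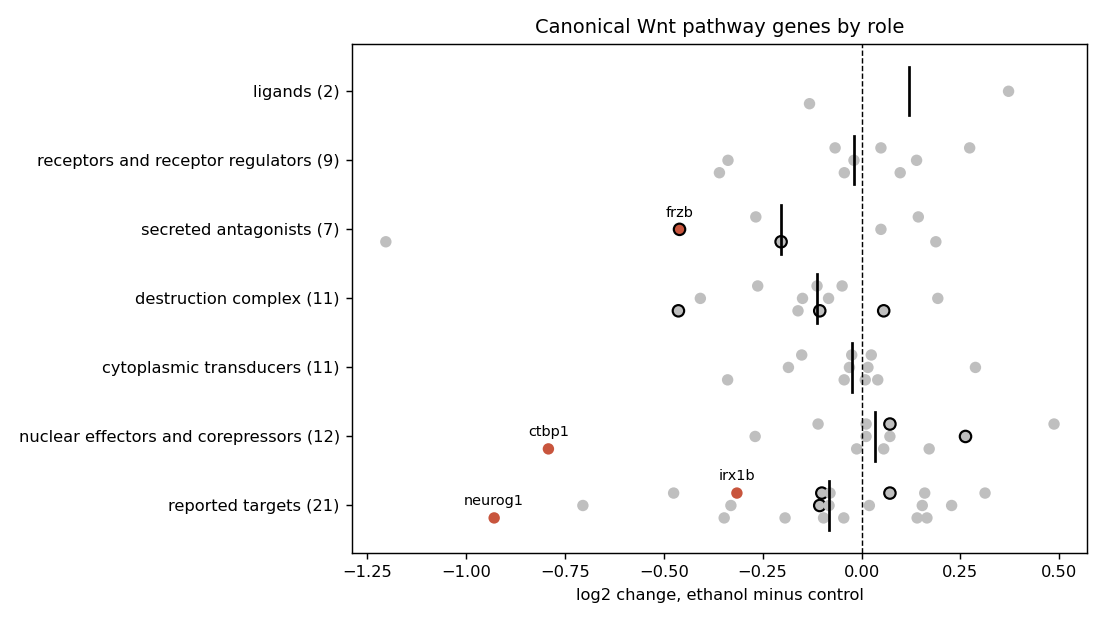
Log2 change (x axis, ethanol minus control) of each tested gene by role in the pathway (y axis), with 1 point a gene, black outlines for members, red for called genes, and a black line at each role's median. The number beside each role is that of the genes tested. The called genes, frzb, ctbp1, neurog1 and irx1b, all lie left of 0, and most genes lie close to it.

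Markers of regions and layers that the pools hold moved with ethanol in part. Of the yolk syncytial layer markers, 4 of 7 tested fell, the apolipoprotein genes apoba, apobb.1, apoa2 and apoa4b.1, and 0 of the list were at a signal of 0. The summed signal of all 7 was 10439 to 20307 in controls and 5156 to 12753 with ethanol, and lower in all 7 pairs. Its largest parts came from the called genes apobb.1 and apoa2 (control means 4443 and 3569). The other markers, hnf4a at -0.05 (SE 0.11), gata6 at -0.19 (SE 0.09) and slc26a1 at -0.29 (SE 0.13), were not called. The call on apoba was kept in 13 of 17 alternatives. It ended without pair 5 (adjusted p = 0.108), without the replicate block (0.573), with a random block (0.19) and without trend (0.272). That on apoa4b.1 was kept in 3 of 16. It ended, among other settings, without pair 2, 3, 4, 5, 6 or 8 (adjusted p of 0.179, 0.142, 0.207, 0.134, 0.181 and 0.246). apoa2 and apobb.1 kept the call in 15 of 17 alternatives each. Both lost it without the replicate block (adjusted p of 0.531 and 0.401), apoa2 also with a random block (0.117) and apobb.1 also without trend (0.139). Of 8 markers of later gastrula stages 1 fell, neurog1. The summed signal of the 8 was 7333 to 9222 in controls and 6617 to 8731 with ethanol, higher in 1 of 7 pairs. Their median change was -0.25, with 2 values above 0 and 6 below. The highest, mespaa, picked after its value was seen, stood at 0.51 (limma adjusted p = 0.135), with 5 of 7 pairs higher.

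The dorsal and ventral sources of the pathway gave mixed values. The summed signals given here are linear, so the genes of highest signal in a list weigh most. The called genes shha and six3a, with control means of 619 and 263, weigh little in theirs. Of 9 prechordal plate and organizer markers 1 fell, shha (-0.57, SE 0.17, limma adjusted p = 0.0779), and their summed signal, 16753 to 20981 in controls and 17071 to 19931 with ethanol, was higher in 6 of 7 pairs. The paper states that its arrays at 8 hpf detected no difference in shh, and its gene table used cutoffs on both fold change and p-value. The call here rests on an unlike threshold, an adjusted p of up to 0.10 (limma unadjusted p = 0.00268). This call was kept in 7 of 17 alternatives. The call on shha ended without pair 2, 3, 4, 6 or 8 (adjusted p of 0.176, 0.186, 0.185, 0.115 and 0.171). It also ended with a signal minimum of 100 (0.13), no minimum (0.14), median centring (0.211), no replicate block (0.312) and no trend (0.188). Of 7 ventrolateral margin markers 0 were called, and their summed signal, 50615 to 64996 and 52554 to 73061, was higher in 4 of 7 pairs. Most of these margin markers were also in the list of reported targets, as was neurog1 of the later gastrula list. The results of these lists are therefore not separate measurements. Of 8 anterior neural plate markers six3a rose (0.84, SE 0.19, limma adjusted p = 0.025), against the direction of most of its list. With an offset of 100 added to each signal the six3a value was 0.65. The median of these 8 was -0.19, with 2 values above 0 and 6 below. Their summed signal, 18611 to 27115 and 17109 to 24985, was higher in 1 of 7 pairs. Of 7 enveloping layer markers anxa1a fell (-0.25, SE 0.08, limma adjusted p = 0.0901), a call kept in 5 of 17 alternatives. It ended, among other settings, without pair 1, 3, 4, 5 or 8 (adjusted p of 0.153, 0.168, 0.269, 0.193 and 0.134). The summed signal of the 7, 217973 to 238774 and 205927 to 261275, was higher in 4 of 7 pairs. The list's median was 0.10, with 4 values above 0 and 3 below. Those above 0, none of them called, were the keratin genes krt8 (0.19, 6 of 7 pairs higher), krt18a.1 (0.15, 7 of 7) and krt4 (0.10, 6 of 7) and the claudin gene cldne (0.37, 6 of 7).

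The paper checked the RNA on a Bioanalyzer before labelling and reports high integrity numbers for all samples. On the arrays, RNA quality was also read from the 3' and 5' probe sets for GAPDH. The log2 ratio of 3' over 5' signal was higher with ethanol by 1.82 in the mean, in 6 of 7 pairs (two-sided exact sign-flip p = 0.0625), and 16 of the 28 signals behind it were under 200. frzb was lower in the 6 pairs with a higher ratio and in pair 2 (-0.36), the 1 pair without, which is too few for a comparison. The same ratio for the actin gene acta1 was higher by 1.57, in 5 of 7 pairs (two-sided exact sign-flip p = 0.156), with 22 of 28 signals under 200. The part of the yolk syncytial layer markers, the later-stage markers and this ratio in the frzb difference was not tested.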

How the data were processed

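Total RNA of 14 embryo pools was hybridised to 1 array each. The deposited intensity values are MAS5 signals on a linear scale, which the authors made in Affymetrix Expression Console with scaling to a target of 1000, and the files hold no probe-level data. Median signals were 214.3 to 281.5 in control and 218.7 to 295.7 in ethanol arrays, with 7943 to 9262 probe sets at or above 200. Gene symbols came from the platform annotation, which gives 1 symbol to 10795 probe sets, several to 135 and none to 4572, updated through a RefSeq gene table. After removal of 115 control probe sets, those with a signal of 200 or more in at least 3 of 7 arrays of a treatment were kept, log2 transformed and fitted in limma 3.58.1 (R 4.3.3) with treatment and pair, eBayes with a mean-variance trend, and Benjamini-Hochberg adjustment over 9240 probe sets. Exact sign-flip and permutation tests were run in Python 3.11.15 with SciPy 1.17.1 as two-sided tests.

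The methods describe separate experiments, and arrays of 1 number deviated together (correlation of deviations from the group means 0.112 to 0.378 in the 7 pairs, although array 1 had a higher value, 0.136, with an array of another number), so the number was used as a block. The members and the gene lists were chosen with earlier results of these data known. The rule for names took all member probe sets, called genes and, of each pathway list, up to 4 genes of highest signal. Marker lists also allowed the 2 of highest signal, and of those lists called genes are named here. In addition, 4 enveloping layer genes, 2 receptor genes, sfrp5, mespaa and the uncalled yolk syncytial layer genes were picked after their values were seen. Genes without a probe set, or under the filter, were not analysed here. Alternatives changed the filter, scaling, offset, block, trend, array weights and pairs. The fit was also run on simulated data with normal noise drawn from its own variances. Such a run cannot show how well the fit suits MAS5 signals.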

Additional observations from a re-analysis of the deposited data

Results flagged for a closer look

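In 40 groups of 7 arrays over 20 named probe sets, 5 held a pool far from the other 6 by Dixon's criterion. Chance gives about 1 in 20 groups where values are normally distributed. The signals searched were linear and the groups share arrays, so that rate cannot be set against the count here. All 5 were the highest pool of their group. The gsk3ba signal of control pool 1 was 696, against 428 in the next control, and the tcf7l1a signal of alcohol pool 4 was 786, against 581 in the next alcohol pool. The neurog1 signal of control pool 2 was 1139 (next 444), the six3a signal of alcohol pool 4 was 813 (next 509.6), and the apoba signal of control pool 2 was 1322 (next 659).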

How the results depend on the processing

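The fall of frzb was the 1 member call. It was lost, leaving 0 of 9 members called, with a signal minimum of 100, no minimum, median centring, no replicate block (adjusted p = 0.412), a random replicate block, no trend in eBayes, and array weights, and leaving out 1 pair gave 0 to 1. In 13 of 17 alternatives no member was called. The 8 other member probe sets passed under 0 alternatives, and of 152 member values 139 stayed on their side of the threshold, the rest being values of frzb. Over all probe sets 403 were called, and 103 with median centring, 28 without the replicate block (25 higher and 3 lower), 177 with a random block and 43 without trend. Leaving out a pair gave 209 (without pair 8) to 483 (without pair 1), with 239, 241 and 246 without pairs 5, 4 and 6. Without trend the batch effect held for 1 member, since that on sp5l was lost (adjusted p = 0.233). The relation of dkk1b to the wnt8 locus had r of 0.803 (without pair 1) to 0.964, and r of the others ran from 0.109 to 0.443 (axin2), -0.297 to 0.574 (frzb), -0.671 to 0.355 (lef1) and -0.236 to 0.534 (sp5l). The cause of these differences was not tested. gsk3ba was not measured at a signal minimum of 400, and 2 of its ethanol signals lay under the filter of 200.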
